A study of Homo sapiens with 3 samples.

Results

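The 10 genes described here are feedback and survival targets of the transcription factor NF-κB, namely TNFAIP3, TNIP1, BIRC3, TRAF1, CFLAR, TNFAIP2, IER3, NUAK2, RIPK2 and CD83. They were taken by gene symbol from the deposited expression table, which lists 58735 genes, and all 10 were found once each. RNA sequencing had been run on 3 libraries that carry the label HCT116, the name of a cell line from a human colorectal carcinoma. The groups were cells overexpressing ZEB1 K80R, in which an arginine replaces a lysine of the transcription factor ZEB1, cells overexpressing wild-type ZEB1, and empty vector control cells. Each group had 1 library, all were grown in DMEM with fetal bovine serum, and the treatment label of every library reads control. The title of the series asks how K80R bears on NF-κB signalling, epithelial-mesenchymal transition and inflammatory genes, and the labels do not say how the lines were made or whether they are clones.

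NF-κB is held in the cytoplasm by IκB proteins until a receptor such as the TNF receptor activates the IKK kinase, after which it enters the nucleus and binds κB sites in promoters. Among its targets are genes that switch the pathway off again, by editing the ubiquitin chains on which the receptor complex is built, and genes that keep the cell alive by blocking caspases at the death receptors. Because these genes are transcribed quickly after stimulation, their mRNA is widely used as a readout of NF-κB activity. In the intestinal epithelium TNFAIP3 is known to protect cells from death induced by TNF.

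Start windows of these genes are shown to let the κB matches be read beside the expression values. Windows of 300 bases, from 250 before to 50 after each transcript start, came from RefSeq (GRCh38.p14) and covered 8 of the 10 genes with 15 windows. No window was listed for IER3 and RIPK2. Capitals mark matches to the κB consensus on either strand, and each window is written 5′ to 3′ on the strand of its gene. The first 5 hold a match, and TNFAIP2 is shown as a gene with a wide difference between libraries and no match.
TNFAIP3, chr6:137867009-137867308, plus strand: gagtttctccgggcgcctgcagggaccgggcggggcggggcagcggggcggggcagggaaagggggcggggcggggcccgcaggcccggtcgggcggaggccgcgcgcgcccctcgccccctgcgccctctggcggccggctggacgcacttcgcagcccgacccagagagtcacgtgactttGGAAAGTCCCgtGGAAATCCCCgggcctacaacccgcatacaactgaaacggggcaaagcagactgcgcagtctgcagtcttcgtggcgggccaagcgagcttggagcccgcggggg
TNIP1, chr5:151080985-151081284, minus strand: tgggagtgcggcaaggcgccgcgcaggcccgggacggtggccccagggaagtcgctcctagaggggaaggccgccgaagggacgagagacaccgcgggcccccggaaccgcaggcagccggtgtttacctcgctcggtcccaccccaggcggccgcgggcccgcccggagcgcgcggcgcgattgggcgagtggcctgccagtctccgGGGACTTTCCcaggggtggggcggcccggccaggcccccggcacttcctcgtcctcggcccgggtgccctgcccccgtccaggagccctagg
BIRC3, chr11:102317234-102317533, plus strand: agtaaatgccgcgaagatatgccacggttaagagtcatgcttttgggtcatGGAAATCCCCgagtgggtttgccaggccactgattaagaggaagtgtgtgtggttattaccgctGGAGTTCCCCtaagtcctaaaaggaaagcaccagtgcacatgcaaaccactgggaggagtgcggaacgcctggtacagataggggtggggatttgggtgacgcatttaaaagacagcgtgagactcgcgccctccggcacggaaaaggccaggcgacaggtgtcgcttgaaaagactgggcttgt
CFLAR, chr2:201118466-201118765, plus strand: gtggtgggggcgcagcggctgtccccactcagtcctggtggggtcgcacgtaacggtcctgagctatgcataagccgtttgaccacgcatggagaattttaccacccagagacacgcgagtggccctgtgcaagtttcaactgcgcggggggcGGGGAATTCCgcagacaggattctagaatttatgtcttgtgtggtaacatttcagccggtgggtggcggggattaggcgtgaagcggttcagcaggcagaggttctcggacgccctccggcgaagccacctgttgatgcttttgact
CD83, chr6:14117522-14117821, plus strand: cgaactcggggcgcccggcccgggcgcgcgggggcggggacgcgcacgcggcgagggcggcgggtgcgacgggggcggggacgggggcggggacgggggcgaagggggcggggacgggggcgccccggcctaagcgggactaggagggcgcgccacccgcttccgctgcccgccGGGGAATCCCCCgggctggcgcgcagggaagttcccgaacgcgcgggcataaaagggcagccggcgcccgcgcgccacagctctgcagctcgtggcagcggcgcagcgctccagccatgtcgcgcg
TNFAIP2, chr14:103123211-103123510, plus strand: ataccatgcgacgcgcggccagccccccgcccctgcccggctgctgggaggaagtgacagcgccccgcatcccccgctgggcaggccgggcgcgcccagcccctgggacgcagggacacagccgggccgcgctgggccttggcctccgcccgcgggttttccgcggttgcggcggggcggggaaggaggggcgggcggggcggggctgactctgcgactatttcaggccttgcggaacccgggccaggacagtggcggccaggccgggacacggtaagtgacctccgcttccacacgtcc

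The κB consensus was found in 5 of the 8 genes with a window and in 5 of their 15 windows, against 5.91% of all 35116 windows in the table. Genes with more start windows have more chances of a match, and counted by gene the share was 7.09% of 27305. TNFAIP3 held matches starting 67 and 55 bases before the transcript start, and on the strand of the motif they read GGGACTTTCC and GGGGATTTCC. TNIP1 also held GGGACTTTCC, on the strand of the gene and 42 bases before the start. In BIRC3 the matches began 199 and 135 bases before the start and read GGGGATTTCC and GGGGAACTCC. CFLAR held GGGGAATTCC, beginning 97 bases before its start. CD83 held 3 overlapping matches within a single run that began 76 bases before the start. The windows of TRAF1, TNFAIP2 and NUAK2 held none, so the letters of this consensus are not in those windows. These genes were chosen as NF-κB targets, so the matches are a description of them.

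**Figure D1:**
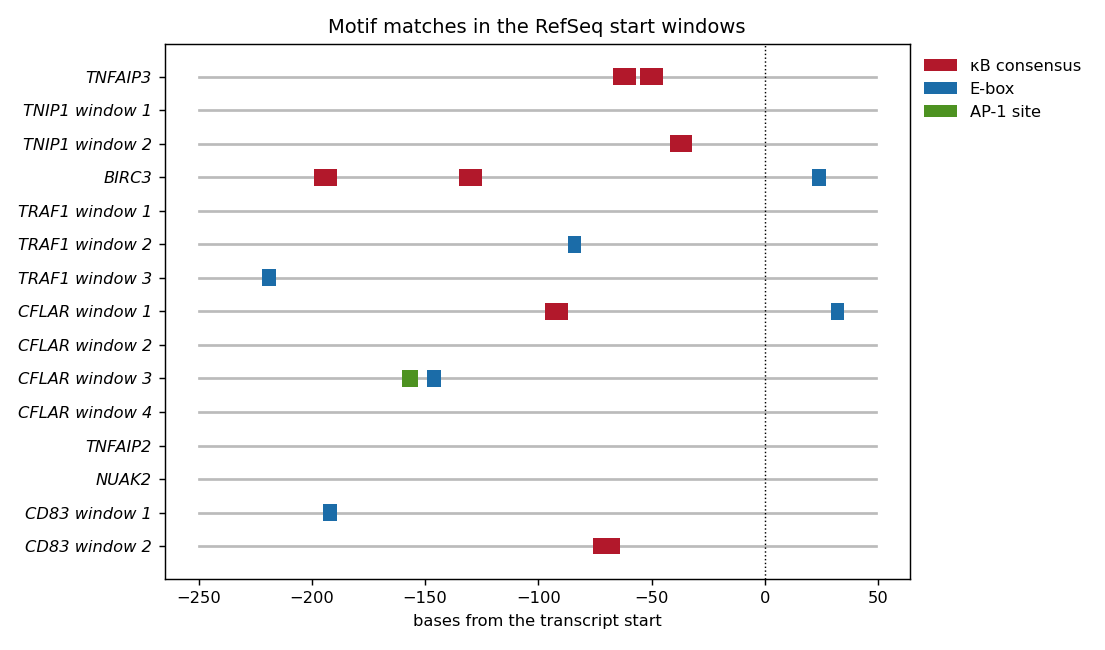
Matches to 3 motifs in the 15 start windows, with the distance in bases from the transcript start on the horizontal axis and 1 row per window, numbered by coordinate where a gene has several. Matches to the κB consensus lie upstream of the start in 5 rows, while the E-box appears in 6 rows and the AP-1 site in 1.

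The E-box CACCTG, the sequence that ZEB1 is known to bind, was searched on both strands and was present in 6 of the 15 windows, or 4 of the 8 genes, against 20.6% of all windows and 24.1% of all genes. These genes were BIRC3, TRAF1, CFLAR and CD83. The AP-1 site TGANTCA occurred in 1 window, of CFLAR, against 7.71% of all windows, and overlapped no other match.

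All levels are FPKM, fragments scaled to gene length and library size, as deposited by the authors. The reads behind them were recovered from the table and came to 13479517 for ZEB1 K80R, 14322537 for wild-type ZEB1 and 14764535 for empty vector. Without replicates the conditions could not be tested, and no p-value is given. Brackets after an FPKM ratio hold its exact 95% interval from read counts. That interval covers the counting error of independent reads only, and not the variation between replicate libraries. Reads copied by PCR are not independent molecules, so it may be too narrow even for counting error. A gene is called higher or lower where FPKM + 1 differed by at least 1.5-fold. In bulk RNA, fewer cells with a transcript and less transcript per cell cannot be told apart.

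The libraries differed beyond these genes. Mitochondrial genes held 9.75% of reads in ZEB1 K80R cells, 7.77% in wild-type ZEB1 cells and 1.29% in empty vector cells, and genes with exactly 1 read numbered 2902, 2705 and 350 in that order. ZEB1 itself stood, as deposited, at 10.3 FPKM in ZEB1 K80R cells, 9.83 in wild-type ZEB1 cells and 5.66 in empty vector cells. Scaling every library to the same total FPKM multiplies these levels by 0.907, 0.896 and 1.23 in that order, which narrows the gap to empty vector. Of 11 colon epithelial markers, 8 had 0 reads throughout, EPCAM, CDH1 and CDX2 among them, and only KRT8 and KRT18 reached a mean FPKM of 1, so defining markers of the labelled tissue had no reads. HCT116 is known as an epithelial line that expresses EPCAM and CDH1, so these values go against the label, and the identity of the cells is in doubt. The part of the differences between libraries in the results was not tested, other than through the changes of scale given with the comparisons.

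By deposited FPKM the wild-type ZEB1 library had the highest level of all 10 genes, while at a common sum, with every library scaled to the same total FPKM, it did so for 8, with CFLAR and RIPK2 highest in empty vector. The levels spanned a wide range. IER3 was the most abundant in every library and TNIP1 the next, while BIRC3 was the lowest in the ZEB1 K80R and empty vector libraries and CFLAR the lowest in the wild-type ZEB1 library. TNFAIP3 stood in place 6 of 10 in ZEB1 K80R cells, place 3 in wild-type ZEB1 cells and place 7 in empty vector cells. By counting error, neighbours in this order were distinct except CD83 and TNFAIP2 in ZEB1 K80R cells, TNFAIP3 and NUAK2 in the ZEB1 K80R and empty vector libraries, NUAK2 and BIRC3 in wild-type ZEB1 cells, and RIPK2 and TNFAIP2 in empty vector cells.

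**Figure D2:**
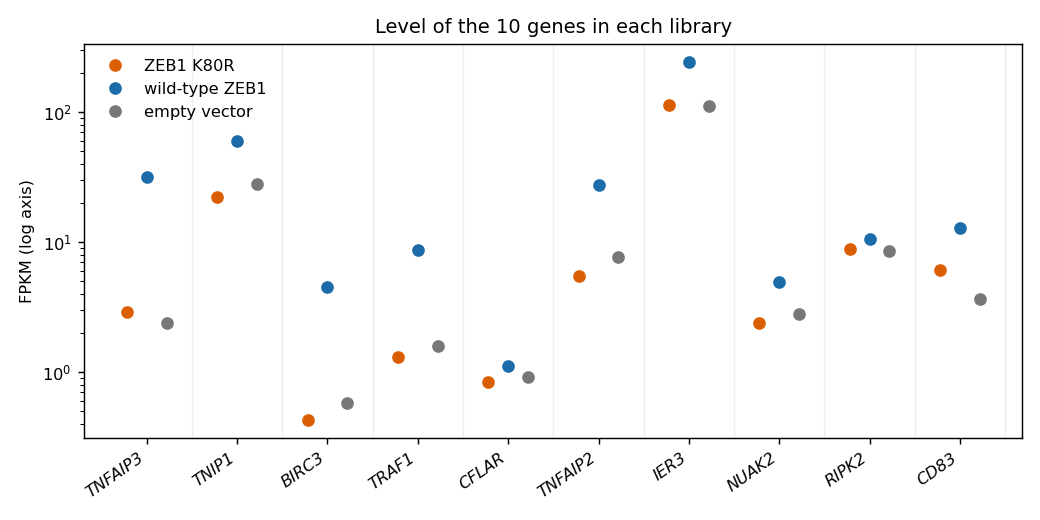
FPKM of the 10 genes on a log axis, with 1 point per library for ZEB1 K80R, wild-type ZEB1 and empty vector. By deposited FPKM the wild-type ZEB1 point is the highest for every gene, from 244.5 for IER3 to 1.11 for CFLAR, though not for CFLAR and RIPK2 at a common sum, and the other points of each gene lie closer together.

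Set against the wild-type ZEB1 library, the ZEB1 K80R library was lower for 8 of the 10 genes and within 1.5-fold for CFLAR and RIPK2, and none was higher. The background was the 12605 genes whose mean FPKM was 1 or more, of which 5.18% were lower and 4.42% higher by the same rule. Among the 10372 protein-coding ones, 3.87% were lower and 1.33% higher. The median difference of log2(FPKM + 1) over the 10 genes was −1.24, against −0.02 over the 12605 genes. The counting interval lay below 1 for all 10, where 29.5% of the 12605 genes had an interval below 1 and 24.2% above 1. At a common sum of FPKM, and also with libraries scaled to their summed reads, the interval lay below 1 for all 10 again. With each library scaled to a common sum without mitochondrial genes, 8 genes were again lower, where 3.03% of the background genes were lower and 6.85% higher, and the median was −1.085 against 0.107 over the background genes.

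The wild-type ZEB1 library, set against empty vector, was higher for the same 8 genes, where 14.2% of the background genes were higher and 11.1% lower, or 12% and 7.63% of the protein-coding ones. With the deposited scaling the counting interval lay above 1 for all 10, where it did so for 35.2% of the background genes and lay below 1 for 33.6%. The library sizes behind the deposited FPKM were 13795840 for wild-type ZEB1 and 15886593 for empty vector, so they differed from the summed reads over genes. Scaled to those summed reads instead, the interval lay above 1 for 8 genes and included 1 for CFLAR, with a ratio of 1.08 (0.929 to 1.27), and for RIPK2, with a ratio of 1.10 (0.965 to 1.26). It also lay above 1 for 8 genes at a common sum of FPKM. The median difference was 1.36 against 0.01 over the background genes, and 0.94 against −0.36 at a common sum. At a common sum 7 of the 10 genes were higher, where 6.27% of the background genes were higher and 32.6% lower, and at the summed reads 7 were higher, where 10.4% were higher and 16.5% lower. At a common sum without mitochondrial genes 8 were higher, where 12% of the background was higher and 13.4% lower. The median was then 1.285 against −0.049 over the background genes. Housekeeping genes also stood above empty vector, with 5 of 10 higher, 1 lower and a median of 0.58, or 0.12 at a common sum. For ZEB1 K80R against wild-type ZEB1 none of these 10 housekeeping genes was past 1.5-fold, and their median was −0.28. As deposited, the counting interval lay below 1 for 8 of the 10 housekeeping genes in that comparison. For wild-type ZEB1 against empty vector it lay above 1 for 8 of them and below 1 for 2.

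Between the ZEB1 K80R and empty vector libraries 9 of the 10 genes lay within 1.5-fold and CD83 was higher, where 12.6% of the background genes were higher and 13% lower, or 9.68% and 10.3% of the protein-coding ones. The median difference was −0.10. The counting interval excluded 1 upwards for CD83 and downwards for TNIP1 and TNFAIP2, and intervals above and below 1 were found for 34.7% and 33.8% of the background genes. At a common sum CD83 came within range and TNIP1 and TNFAIP2 became lower, at −0.75 and −0.80, and intervals lay below 1 for 8 of the 10 genes. The median of the background was then −0.36, with 5.8% of it higher and 32.5% lower. At a common sum without mitochondrial genes 1 gene, CD83, was higher and 0 were lower. There 15.4% of the background was higher and 11% lower, and the median was −0.068 against 0.068 over the background genes. Scaled to the summed reads, none of the 10 was past 1.5-fold, where 9.84% of the background was higher and 17.1% lower, and intervals lay above 1 for CD83 and below 1 for TNIP1, TNFAIP2, TRAF1 and CFLAR. The 3 comparisons share libraries, so they are not independent of each other.

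**Figure D3:**
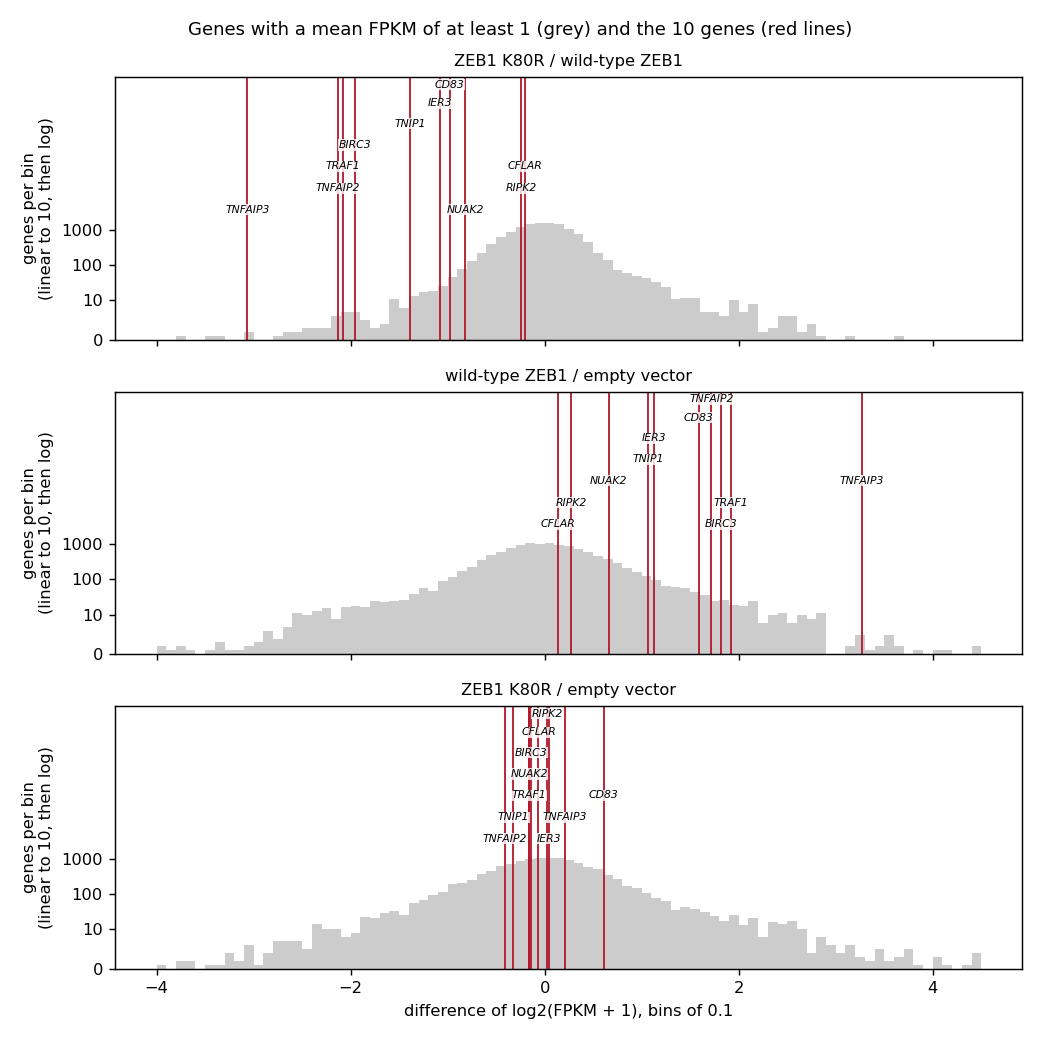
Number of genes per bin of 0.1 in the difference of log2(FPKM + 1), for the 12605 background genes (grey, with the outermost bins holding values beyond the axis) and for each of the 10 genes (red lines). In the upper panel the 10 lines run from −3.06 for TNFAIP3 to −0.20 for CFLAR, in the middle panel they lie above 0 as deposited, with CFLAR and RIPK2 below 0 at a common sum, and in the lower panel they run from −0.41 for TNFAIP2 to 0.61 for CD83.

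The ubiquitin-editing pair came first. TNFAIP3, also called A20, removes and replaces ubiquitin chains on components of the TNF receptor complex and so ends IKK activation (ENSG00000118503; GRCh38, chromosome 6, 137867188 to 137883312, plus strand). It stood at 2.93 FPKM from 197 reads in ZEB1 K80R cells, 31.8 FPKM from 2219 reads in wild-type ZEB1 cells and 2.41 FPKM from 193 reads in empty vector cells. Wild-type ZEB1 alone was high, and the other libraries lay far below it and close to each other. The ratio of ZEB1 K80R to wild-type ZEB1 was 0.0919 (0.0791 to 0.106), and in the difference of log2(FPKM + 1) TNFAIP3 had place 5 from the bottom of the 12605 genes. Against empty vector, wild-type ZEB1 had a ratio of 13.2 (11.4 to 15.4), place 17 from the top.

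TNIP1, or ABIN1, binds ubiquitin chains and brings TNFAIP3 to them (ENSG00000145901; chromosome 5, 151029945 to 151093577, minus strand). Its level was 22.4 FPKM from 1729 reads in ZEB1 K80R cells, 60.4 from 4826 reads in wild-type ZEB1 cells and 28.3 from 2601 reads in empty vector cells. The ZEB1 K80R library was the lowest of the 3. Its ratio to wild-type ZEB1 was 0.371 (0.351 to 0.392) and its ratio to empty vector was 0.793 (0.746 to 0.843). TNIP1 thus shared the direction of TNFAIP3, at a smaller size, in the comparisons with wild-type ZEB1. Between ZEB1 K80R and empty vector it did not, as the TNFAIP3 ratio there was 1.22 (0.993 to 1.49).

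Survival genes followed. BIRC3, or cIAP2, is a ubiquitin ligase that keeps RIPK1 from starting cell death (ENSG00000023445; chromosome 11, 102317450 to 102339403, plus strand). It had 0.429 FPKM from 43 reads in ZEB1 K80R cells, 4.56 from 473 reads in wild-type ZEB1 cells and 0.578 from 69 reads in empty vector cells. Only wild-type ZEB1 exceeded an FPKM of 1, so BIRC3 entered the background genes through that library alone. The ratio of ZEB1 K80R to wild-type ZEB1 was 0.0941 (0.0672 to 0.129), which overlapped that of TNFAIP3. The ratio of ZEB1 K80R to empty vector was 0.743 (0.496 to 1.10) as deposited and 0.548 (0.365 to 0.813) at a common sum. Because of the pseudocount of 1 the log2 difference of BIRC3 was −1.96 where that of TNFAIP3 was −3.06, and with a pseudocount of 0.1 it was −3.14.

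TRAF1 is an adaptor that binds TRAF2 and, through it, the cIAP proteins (ENSG00000056558; chromosome 9, 120902393 to 120929173, minus strand). It was at 1.30 FPKM from 112 reads in ZEB1 K80R cells, 8.74 from 778 reads in wild-type ZEB1 cells and 1.58 from 162 reads in empty vector cells. As for BIRC3, the wild-type ZEB1 library stood apart and the other levels were close. The ratio of ZEB1 K80R to wild-type ZEB1 was 0.149 (0.121 to 0.182), and that of wild-type ZEB1 to empty vector was 5.53 (4.66 to 6.59). ZEB1 K80R to empty vector was 0.824 (0.642 to 1.06) as deposited and 0.608 (0.473 to 0.778) at a common sum.

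IER3, or IEX-1, is an immediate early gene that modulates apoptosis (ENSG00000137331; chromosome 6, 30743199 to 30744554, minus strand). It stood at 114.8 FPKM from 2074 reads in ZEB1 K80R cells, 244.5 from 4574 reads in wild-type ZEB1 cells and 111.1 from 2393 reads in empty vector cells. The ratio of ZEB1 K80R to wild-type ZEB1 was 0.470 (0.446 to 0.495). That of ZEB1 K80R to empty vector was 1.03 (0.974 to 1.10) as deposited and 0.762 (0.718 to 0.808) at a common sum. Of its 1356 exonic bases, 359 overlap the antisense gene IER3-AS1, which stood at 0, 0.275 and 0 FPKM in the ZEB1 K80R, wild-type ZEB1 and empty vector libraries. The sources used here do not give the strand setting of the counting, so reads of the pair in those bases cannot be told apart.

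CFLAR, or c-FLIP, resembles caspase-8 without its catalytic activity and blocks it at death receptors (ENSG00000003402; chromosome 2, 201116104 to 201176687, plus strand). Its level was 0.833 FPKM from 250 reads in ZEB1 K80R cells, 1.11 from 345 reads in wild-type ZEB1 cells and 0.916 from 328 reads in empty vector cells. The libraries lay close together. The ratio of ZEB1 K80R to wild-type ZEB1 was 0.750 (0.635 to 0.886), and that of wild-type ZEB1 to empty vector was 1.21 (1.04 to 1.41) as deposited and 0.882 (0.756 to 1.03) at a common sum. The FPKM of CFLAR were divided by 22529 bases, the union of its annotated exons, which is far longer than the other genes of the set and lowers its level beside theirs. With a mean FPKM of 0.953 it was the single gene of the 10 below the minimum of the background genes. Exons of other genes overlap it by 445 bases on the same strand and 2265 bases on the opposite strand.

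The set holds a pair of kinases. NUAK2, a kinase related to AMPK (ENSG00000163545; chromosome 1, 205302059 to 205321791, minus strand), had 2.38 FPKM from 109 reads in ZEB1 K80R cells, 4.97 from 236 reads in wild-type ZEB1 cells and 2.78 from 152 reads in empty vector cells. Its ratio of ZEB1 K80R to wild-type ZEB1 was 0.478 (0.378 to 0.603). Wild-type ZEB1 to empty vector was 1.79 (1.45 to 2.21), or 1.58 in FPKM + 1, close to the limit of 1.5-fold, and it came within range at a common sum. RIPK2, which carries signals from the bacterial sensors NOD1 and NOD2 to IKK (ENSG00000104312; chromosome 8, 89757747 to 89791063, plus strand), had 8.81 FPKM from 366 reads in ZEB1 K80R cells, 10.6 from 457 reads in wild-type ZEB1 cells and 8.62 from 427 reads in empty vector cells. Its levels were nearly level across the libraries, with a ratio of ZEB1 K80R to wild-type ZEB1 of 0.829 (0.721 to 0.954). The ratio of wild-type ZEB1 to empty vector was 1.23 (1.08 to 1.41) as deposited and 0.897 (0.785 to 1.03) at a common sum.

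The remaining pair were TNFAIP2 and CD83. TNFAIP2, or M-Sec, takes part in the formation of membrane protrusions (ENSG00000185215; chromosome 14, 103123442 to 103137439, plus strand). It stood at 5.54 FPKM from 371 reads in ZEB1 K80R cells, 27.7 from 1920 reads in wild-type ZEB1 cells and 7.71 from 616 reads in empty vector cells. ZEB1 K80R was the lowest of the 3, with ratios of 0.200 (0.179 to 0.224) to wild-type ZEB1 and 0.718 (0.630 to 0.818) to empty vector. CD83 is a surface protein best known from mature dendritic cells (ENSG00000112149; chromosome 6, 14117256 to 14136918, plus strand). It had 6.09 FPKM from 204 reads in ZEB1 K80R cells, 13.0 from 450 reads in wild-type ZEB1 cells and 3.65 from 146 reads in empty vector cells. For CD83 the ZEB1 K80R library lay between the other libraries. As deposited, TNFAIP3, IER3 and RIPK2 had the same order of libraries, but their counting intervals between ZEB1 K80R and empty vector included 1. The CD83 ratio of ZEB1 K80R to wild-type ZEB1 was 0.469 (0.396 to 0.555) and to empty vector 1.67 (1.34 to 2.08). At a common sum the CD83 ratio of ZEB1 K80R to empty vector was 1.23 (0.988 to 1.53).

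**Figure D4:**
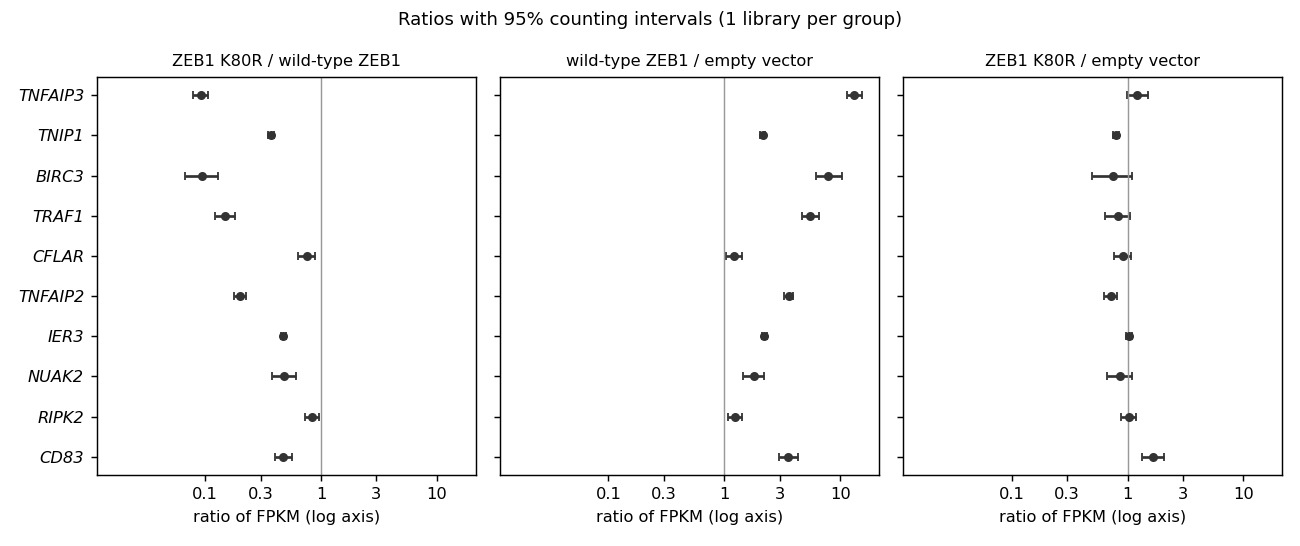
Ratio of FPKM of each of the 10 genes on a log axis, with points for the ratio and bars for exact 95% counting intervals, in panels for ZEB1 K80R over wild-type ZEB1, wild-type ZEB1 over empty vector and ZEB1 K80R over empty vector. TNFAIP3 and BIRC3 lie furthest from 1 in the left and middle panels, and CD83, at 1.67, lies furthest above 1 in the right panel.

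CD83 and TRAF1 are typical of immune cells, so leukocyte markers were read beside them. Of 9 such markers, PTPRC, CD3E and CD1A had 0 reads in all libraries, and only CSF1R reached a mean FPKM of 1. Their summed FPKM was 1.58 in ZEB1 K80R cells, 1.41 in wild-type ZEB1 cells and 0.899 in empty vector cells. For 8 markers of endothelium and fibroblasts the sums were 2.82, 3.97 and 2.96 in that order, and LUM had 0 reads throughout. Single markers of this list differed in opposite directions. The pericyte and fibroblast receptor PDGFRB was at 1.54 FPKM in ZEB1 K80R cells, 2.19 in wild-type ZEB1 cells and 0.573 in empty vector cells, which made it higher than empty vector in both. The collagen gene COL1A1 was at 0.680, 0.930 and 1.70 FPKM in that order, lower in ZEB1 K80R than in empty vector. The endothelial marker PECAM1 was at 0.426, 0.495 and 0.130 FPKM and within 1.5-fold in FPKM + 1.

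Close relatives and partners of the genes, 37 in 8 lists, were set beside them. No list was made for TNFAIP2, so it was not compared in this way. Of the 37, only 25 had a mean FPKM of at least 1 and 4 had 0 reads in all libraries. Differences in FPKM + 1 of such scarce genes are held near 0, and so in part are the medians. ZEB1 K80R against wild-type ZEB1 was lower for 2 of the 37 and higher for none, with a median of −0.09. In that comparison 5.18% of the background genes were lower and 4.42% higher. Wild-type ZEB1 against empty vector was higher for none and lower for 4, with a median of 0.00. There 14.2% of the background genes were higher and 11.1% lower. The genes lower in ZEB1 K80R than in wild-type ZEB1 were BIRC2 and TNIP2. BIRC2, or cIAP1, the paralogue that lies next to BIRC3 with a gap of 7808 bases, stood at 11.2 FPKM in ZEB1 K80R cells, 21.6 in wild-type ZEB1 cells and 14.7 in empty vector cells. TNIP2, or ABIN2, stood at 18.7, 29.9 and 31.6 in that order, so wild-type ZEB1 lay close to empty vector. The lists were chosen with the values of these libraries known, and no test of the difference between the genes and their relatives was made.

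Among the other TRAF adaptors TRAF2, the partner of TRAF1, was at 4.84 FPKM in ZEB1 K80R cells, 5.86 in wild-type ZEB1 cells and 7.92 in empty vector cells, and all 6 relatives of TRAF1 were within 1.5-fold between ZEB1 K80R and wild-type ZEB1. CASP8, the caspase that CFLAR blocks, was at 3.97, 4.60 and 5.18 FPKM in the same order of libraries, and its adaptor FADD at 6.36, 7.32 and 19.4. For IER3, the relative IER5 was at 20.0 FPKM in ZEB1 K80R cells, 23.0 in wild-type ZEB1 cells and 52.0 in empty vector cells, a pattern in which empty vector was highest. NUAK1, the paralogue of NUAK2, was at 4.10, 5.17 and 6.22 FPKM in ZEB1 K80R, wild-type ZEB1 and empty vector. The receptors upstream of RIPK2 were scarce, with at most 98 reads for NOD1 and 2 for NOD2 in any library. CD80 and CD40, costimulatory proteins of antigen-presenting cells, had 0 reads in all 3 libraries, while CD274 (PD-L1) stood at 6.51 FPKM in ZEB1 K80R cells, 4.04 in wild-type ZEB1 cells and 2.54 in empty vector cells. A count of 0 allows up to 3 reads, worth 0.113, 0.109 and 0.0944 FPKM for a gene of 2000 bases in those libraries.

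**Figure D5:**
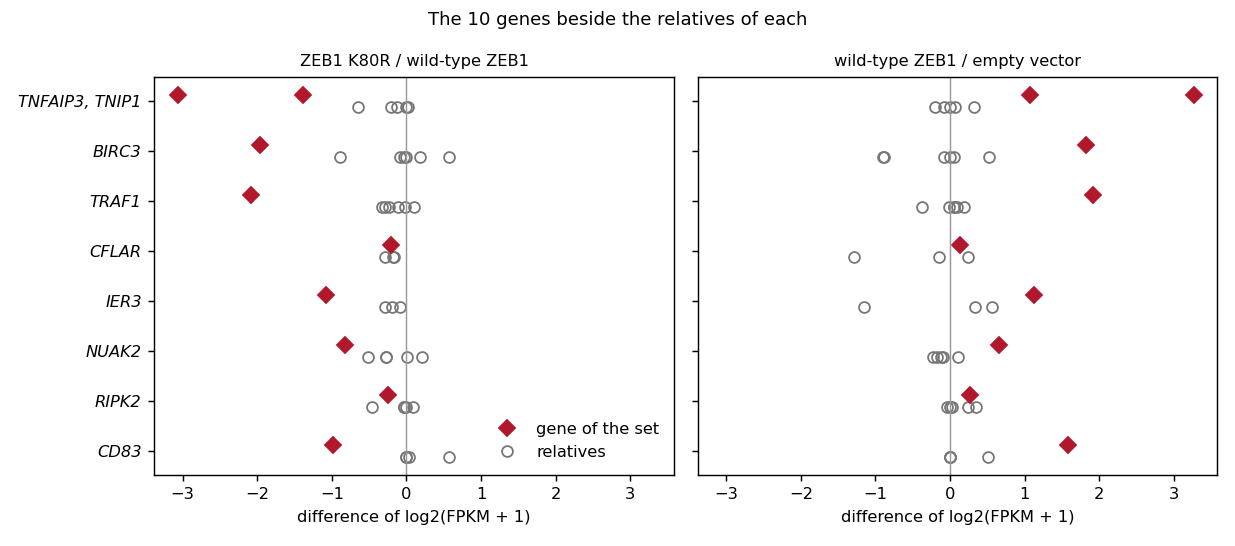
Difference of log2(FPKM + 1) for genes of the set (filled diamonds) and their relatives and partners (open circles), 1 row per list, for ZEB1 K80R over wild-type ZEB1 on the left and wild-type ZEB1 over empty vector on the right. TNFAIP2 had no list of relatives and is not drawn. The diamonds of TNFAIP3, TNIP1, BIRC3, TRAF1, IER3, NUAK2 and CD83 lie outside the circles of their row in both panels, while CFLAR and RIPK2 lie among or near theirs. Circles of scarce genes are held near 0 by the pseudocount, and only 1 of 4 relatives of CD83 and 1 of 5 of RIPK2 reached a mean FPKM of 1.

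Other genes of the pathway were read by role. The lists overlap, so their counts are not independent of each other or of the relatives. BIRC2 is counted under the TNF receptor complex, the survival genes and the relatives. TNIP2 is counted under the ubiquitin editors and the relatives. Of the background genes, 5.18% were lower and 4.42% higher in ZEB1 K80R than in wild-type ZEB1. In wild-type ZEB1 against empty vector 14.2% were higher and 11.1% lower. Of 18 genes of the TNF receptor complex and IKK, 1 was lower in ZEB1 K80R than in wild-type ZEB1 and none higher, with a median of −0.04, and BIRC2 was that gene. Against empty vector, wild-type ZEB1 was higher for none of the 18 and lower for 3. Next in size in the first comparison were TRADD, the adaptor of the TNF receptor, at 4.68 FPKM in ZEB1 K80R, 7.09 in wild-type ZEB1 and 11.6 in empty vector, and RBCK1, a subunit of the linear ubiquitin ligase, at 23.6, 34.1 and 24.4. Of 11 NF-κB subunits and IκB proteins, 6 were lower in ZEB1 K80R than in wild-type ZEB1 and none higher, with a median of −0.79, and 5 were higher in wild-type ZEB1 than in empty vector. The subunit RELB, the widest of them between ZEB1 K80R and wild-type ZEB1, stood at 4.16 FPKM in ZEB1 K80R, 18.5 in wild-type ZEB1 and 5.99 in empty vector. The inhibitor NFKBIA (IκBα) stood at 23.4, 69.6 and 15.9 FPKM in that order.

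Of 15 other ubiquitin editors and feedback genes, 3 were lower in ZEB1 K80R than in wild-type ZEB1 and none higher, with a median of −0.33. Wild-type ZEB1 was higher than empty vector for 3 and lower for none, where the background shares were 14.2% and 11.1%. In lists this short, such counts against empty vector, here and for the survival genes below, are not set apart from those shares. ZC3H12A, an RNase that degrades inflammatory mRNA, was at 6.83 FPKM in ZEB1 K80R, 17.3 in wild-type ZEB1 and 4.46 in empty vector. SQSTM1, the autophagy receptor p62, was at 47.9, 82.7 and 67.3 FPKM in that order. Of 12 other survival genes, 5 were lower and none higher, with a median of −0.44, and wild-type ZEB1 was higher than empty vector for 3 and lower for 2. The BCL2 relative BCL2A1, a known NF-κB target, stood at 2.83 FPKM in ZEB1 K80R, 14.8 in wild-type ZEB1 and 3.29 in empty vector, and the superoxide dismutase SOD2 at 2.42, 27.6 and 5.74. The kinase PIM3 was at 18.2, 46.4 and 55.3 FPKM, with ZEB1 K80R apart from both other libraries. Of 14 genes of the death machinery, none passed 1.5-fold between ZEB1 K80R and wild-type ZEB1, and the median was −0.17. The widest differences there were those of BID, at 9.59 FPKM in ZEB1 K80R, 14.0 in wild-type ZEB1 and 8.07 in empty vector, and of the protease HTRA2, at 7.60, 10.3 and 10.2. Of 16 inflammatory targets, 11 were lower in ZEB1 K80R than in wild-type ZEB1 and none higher, with a median of −1.56, and 13 were higher in wild-type ZEB1 than in empty vector.

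The 6 protein-coding genes whose differences of log2(FPKM + 1) from empty vector, under wild-type ZEB1 and under ZEB1 K80R, lay nearest to those of TNFAIP3 were ICAM1, CXCL3, IL1A, MMP9, PTX3 and DEPP1. Their distances ran from 0.26 for ICAM1 to 0.88 for DEPP1, over 3 libraries. Members of the set were further away on this scale, from 1.40 for TRAF1 and 1.49 for BIRC3 to 3.14 for CFLAR. The 6 genes were picked as the nearest of the protein-coding background genes outside the set. Their shorter distances follow at least in part from that choice. The pseudocount of 1 narrows the differences of low genes, such as BIRC3 and ICAM1, so the order depends on it. ICAM1 had 9 reads in empty vector, and its ratio of wild-type ZEB1 to empty vector was 80.5 (42.1 to 177), against 13.2 for TNFAIP3. It entered the background genes through wild-type ZEB1 alone, at 12.3 FPKM, against 0.344 in ZEB1 K80R and 0.153 in empty vector. Distances at another pseudocount were not computed. PTX3, which encodes a secreted pentraxin, was at 43.3 FPKM in ZEB1 K80R, 221 in wild-type ZEB1 and 39.4 in empty vector. DEPP1, a target of FOXO factors, was at 9.45, 41.3 and 6.99 FPKM in that order.

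Chromosome neighbours of the genes were read as well. The nearest protein-coding genes on either side of the 10 made 20 flanking genes. Only 14 of these had a mean FPKM of at least 1, and differences of scarcer genes in FPKM + 1 are held near 0. Between ZEB1 K80R and wild-type ZEB1 1 of the 20 was lower, BIRC2, and none higher, with a median of −0.06. In that comparison 5.18% of the background genes were lower and 4.42% higher. Between wild-type ZEB1 and empty vector 1 was higher, GPX3, and 1 lower, NDUFB3, with a median of −0.01, where the background shares were 14.2% and 11.1%. Between ZEB1 K80R and empty vector NDUFB3 was lower, where 13% of the background genes were lower. PERP, which follows TNFAIP3 after 205193 bases, stood at 55.0 FPKM in ZEB1 K80R, 56.1 in wild-type ZEB1 and 47.8 in empty vector. FLOT1 begins only 466 bases from IER3 and was at 15.6, 20.2 and 22.2 FPKM in that order. TNIP1 has GPX3 at 952 bases, with 0.380 FPKM in ZEB1 K80R, 0.985 in wild-type ZEB1 and 0.219 in empty vector. GPX3 was thus higher in wild-type ZEB1 than in empty vector, as TNIP1 was, but its mean FPKM of 0.528 is below the minimum of the background genes. NDUFB3, next to CFLAR, was at 18.7, 27.1 and 48.6 FPKM in that order.

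The 3′ untranslated regions of these mRNAs were searched for the AU-rich repeat ATTTATTTA, known from unstable mRNAs, in 1 GENCODE release 29 transcript per gene. BIRC3, CFLAR and NUAK2 held it, 3 of 10 genes, against 6.62% of 10275 expressed genes with such a transcript. CFLAR had a single copy in a region of 12714 bases, NUAK2 had 2 copies in 1391 bases and BIRC3 a single copy in 632. The shorter ATTTA occurred 5 times in TNFAIP3 and 6 times in IER3 and was absent from TNIP1 and TNFAIP2, with a median of 4.5 over the 10 genes and 2 over the expressed ones. The median region was 1536.5 bases for the 10 genes and 1043 for the expressed genes, and longer regions can hold more copies.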

How the data were processed

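The study deposited 1 expression table for 3 libraries, whose columns match the sample titles. The authors deposited FPKM values per gene, with gene length and GRCh38 coordinates. Per the submitters' processing notes, the builds and tools were hg38, DESeq2 1.20.0, featureCounts 1.5.0-p3 and CASAVA, without roles, and neither aligner nor strand setting is named. The deposited lengths equalled the GENCODE release 29 exon union for all 10 genes.

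Multiplying FPKM by gene length gave whole multiples of 1 read for 100% of values above 0, within 0.05 reads. The recovered reads gave the counting intervals (exact conditional Clopper-Pearson, 95%) and no test; the recovery was tested on simulated data. Differences are of log2(FPKM + 1), which understates low genes. The background was every gene whose mean FPKM reached 1. Of entries sharing a symbol (SOD2 is one), the one with the highest mean was used. A common sum scales each library to the same total FPKM. Alternatives covered pseudocount, scaling, filter, gene type and fold threshold. Python 3.11.15 and scipy 1.17.1 were used.

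The 10 genes, the lists and the tests were chosen with earlier results of these data known. The text names all 10 genes, up to 4 genes per list with the widest difference between ZEB1 K80R and wild-type ZEB1, any relative, and the 6 genes nearest to TNFAIP3. The flanking genes and single markers named were picked after their values were seen.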

Additional observations from a re-analysis of the deposited data

How the results depend on the processing

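No paired analysis was possible because each group had 1 library, and for the same reason no replicate could be left out. The 8 genes lower in ZEB1 K80R than in wild-type ZEB1 numbered 7 with a pseudocount of 5, 6 at a 2-fold threshold and 8 under each other scaling and pseudocount tried. With a pseudocount of 5 the median difference was −0.937 for ZEB1 K80R against wild-type ZEB1 and 1.015 for wild-type ZEB1 against empty vector, which follows from the larger pseudocount. At a common sum of FPKM, which shifted the median of all genes to −0.363 and −0.357 for wild-type ZEB1 and ZEB1 K80R against empty vector, the medians were 0.938 for wild-type ZEB1 and −0.379 for ZEB1 K80R against empty vector, with 0 genes higher and 2 lower in the second. The gene higher in ZEB1 K80R than in empty vector, CD83, was also within range with a pseudocount of 5, at a 2-fold threshold and, in an alternative chosen after seeing the data, with library sizes from the reads over genes, each of which left 0. Leaving mitochondrial genes out of the common sum moved the median of all genes to 0.107 for ZEB1 K80R against wild-type ZEB1, and the 10 genes then had a median of −1.085. No difference past 1.5-fold changed sign. Median ratio scaling gave the same counts as the deposited scaling. With protein-coding genes only, also chosen after seeing the data, the background share higher in ZEB1 K80R than in wild-type ZEB1 was 1.33% in place of 4.42%. With no filter on low values, the share lower in ZEB1 K80R than in empty vector was 8.27% in place of 13%. Without replicates, depth limits only the counting error, which was widest for BIRC3 with 43 reads in the ZEB1 K80R library.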
